A study of Mus musculus with 16 samples.

Results

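The miR-29 family was examined by small RNA sequencing in prefrontal cortex from 8 PS19+/- and 8 wild-type (WT) mice, 16 libraries in all. The 5 members were chosen by name, as the mature rows mmu-miR-29a-3p, mmu-miR-29b-3p, mmu-miR-29c-3p, mmu-miR-29a-5p and mmu-miR-29c-5p, out of 1241 mature miRNA rows and 18488 rows of the whole table. All 5 were listed in the table, all 5 passed the filter on low values, and none had the same values as another row. The table held 6 further rows of the family, for the 5p arms miR-29b-1-5p and miR-29b-2-5p and for the hairpins mir-29a, mir-29b-1, mir-29b-2 and mir-29c. PS19 mice are heterozygous for a human tau transgene with the P301S mutation, driven by the mouse prion protein promoter on a mixed B6;C3 background, so that mutant tau is made on top of the mouse's own tau and in many neuron types. WT mice were littermates without the transgene. Both groups were adult, held males and females in equal number, and were perfused with saline before the cortex was taken, and each library came from 1 mouse. The question was whether cortical miR-29 differs in abundance between the genotypes.

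A miRNA gene is transcribed as a hairpin whose 2 arms, named 5p and 3p, are cut out as short RNAs, and one of them usually stays in the Argonaute protein to repress mRNAs that match its seed, bases 2 to 8. miR-29 is known as a family that rises as neurons mature and that is present in neurons and in astrocytes. Its reported targets include Bace1, which encodes the protease that starts amyloid-beta production, the DNA methyltransferase Dnmt3a, pro-apoptotic BH3-only genes and collagens.

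The mature sequences are shown because the 3 main members differ by so few bases that the identity of each row rests on them. Sequences and positions are from RefSeq on GRCm38.p6, in which 7 of 7 mature names and 4 hairpins were matched. Each is written 5′ to 3′ with the seed in capitals.
mmu-miR-29a-3p: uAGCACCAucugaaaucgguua
mmu-miR-29b-3p: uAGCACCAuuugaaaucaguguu
mmu-miR-29c-3p: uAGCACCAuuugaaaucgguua
mmu-miR-29a-5p: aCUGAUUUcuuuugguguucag
mmu-miR-29c-5p: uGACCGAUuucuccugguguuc
mmu-miR-29b-1-5p: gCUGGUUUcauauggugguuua
mmu-miR-29b-2-5p: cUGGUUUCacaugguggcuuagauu

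The seed AGCACCA was shared by the 3 3p members and by no other of the 1679 mature names in the sequence table. Counted from 1 at the 5′ end, miR-29a-3p and miR-29c-3p differed at 1 of 22 bases, C10U. From miR-29b-3p to miR-29c-3p the changes were A18G, G21U and U22A over the 22 bases that both have. The hexamer AGUGUU, which closes miR-29b-3p and has been described as a nuclear import element of miR-29b, stood anywhere in 12 of 1679 mature names (0.715%) and at the 3′ end in 2 (0.119%), of which the other was miR-92b-5p. Only the strand of the mature miRNA was searched. The 5p arms shared no seed with the 3p arms, and the seeds of miR-29a-5p, miR-29c-5p and miR-29b-1-5p were each found in 1 mature name.

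The 4 hairpins lie in 2 clusters and are shown with both annotated arms in capitals, since the arm rows and the hairpin rows are compared further on.
Mir29a: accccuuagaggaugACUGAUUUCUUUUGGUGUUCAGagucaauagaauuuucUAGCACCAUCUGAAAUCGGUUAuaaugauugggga
Mir29b-1: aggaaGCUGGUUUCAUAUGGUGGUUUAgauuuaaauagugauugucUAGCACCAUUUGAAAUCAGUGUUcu
Mir29b-2: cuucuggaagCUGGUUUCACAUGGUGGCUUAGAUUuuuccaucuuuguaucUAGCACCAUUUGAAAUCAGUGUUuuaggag
Mir29c: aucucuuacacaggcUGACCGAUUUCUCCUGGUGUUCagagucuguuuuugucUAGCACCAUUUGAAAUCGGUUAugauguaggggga

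Mir29a (chr6:31062660-31062747, minus strand) and Mir29b-1 (chr6:31063023-31063093, minus strand) span 434 bases on chromosome 6. Mir29b-2 (chr1:195037040-195037120, plus strand) and Mir29c (chr1:195037547-195037634, plus strand) span 595 bases on chromosome 1. The 3p arm of miR-29b is identical in both clusters, at chr6:31063025-31063047 and chr1:195037091-195037113, so its reads cannot be assigned to one locus. In GENCODE M21, Mir29b-2 and Mir29c lay wholly within exons of the non-coding transcript A330023F24Rik on the same strand and of Cd46 on the opposite strand. Mir29b-1 lay partly in an exon of the lincRNA Gm27019 on the same strand, and Mir29a overlapped no other gene.

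The libraries held 13.2 to 23.1 M recovered reads, of which mature miRNA rows took 14.8 to 32.0%, or 2.64 to 7.38 M reads. Values are normalized counts, that is, reads divided by 1 size factor per library, so that 1 read was worth 0.595 to 1.46. The letter of the library code was G for all 8 PS19 libraries and for 2 WT libraries, and F or A for the other 6 WT libraries (4 and 2), and what it stands for is not stated. Genotype and letter therefore cannot be told apart for most of the WT libraries.

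The family was dominated by miR-29a-3p in both genotypes. miR-29a-3p averaged 1739 ± 748 (SD, n = 8) in PS19 mice and 1959 ± 750 (SD, n = 8) in WT mice in normalized counts, and it ranked 94th by mean among the 1241 mature miRNA rows. miR-29b-3p followed with 124.4 ± 56.4 (SD, n = 8) in PS19 mice and 155.5 ± 61.5 (SD, n = 8) in WT mice. miR-29c-3p, which carries the same seed as both, stood at 30.7 ± 11.6 (SD, n = 8) in PS19 mice and 35.9 ± 14.1 (SD, n = 8) in WT mice. miR-29c-5p, the opposite arm of the miR-29c hairpin, was at 23.0 ± 10.9 (SD, n = 8) and 29.3 ± 15.3 (SD, n = 8), and miR-29a-5p was the lowest with 11.6 ± 10.1 (SD, n = 8) and 9.16 ± 5.51 (SD, n = 8), in PS19 and WT respectively. These are read levels of RNAs of like length, not divided by length. How many reads a molecule of each sequence gave was not measured, so different rows are compared as reads only.

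The order of the levels was largely the same in every library. miR-29a-3p exceeded miR-29b-3p, miR-29b-3p exceeded miR-29c-3p, and miR-29c-5p exceeded miR-29a-5p in 16 of 16 libraries. The neighbours miR-29c-3p and miR-29c-5p did not separate in this way. miR-29c-3p had more reads in 12 libraries, fewer in 2 and as many in 2. The 5p arms of miR-29b, at 37.2 ± 14.3 and 35.8 ± 11.1 for miR-29b-1-5p and 20.3 ± 8.58 and 27.1 ± 10.3 for miR-29b-2-5p (SD, n = 8 each, PS19 and WT), lay among these low rows.

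**Figure D1:**
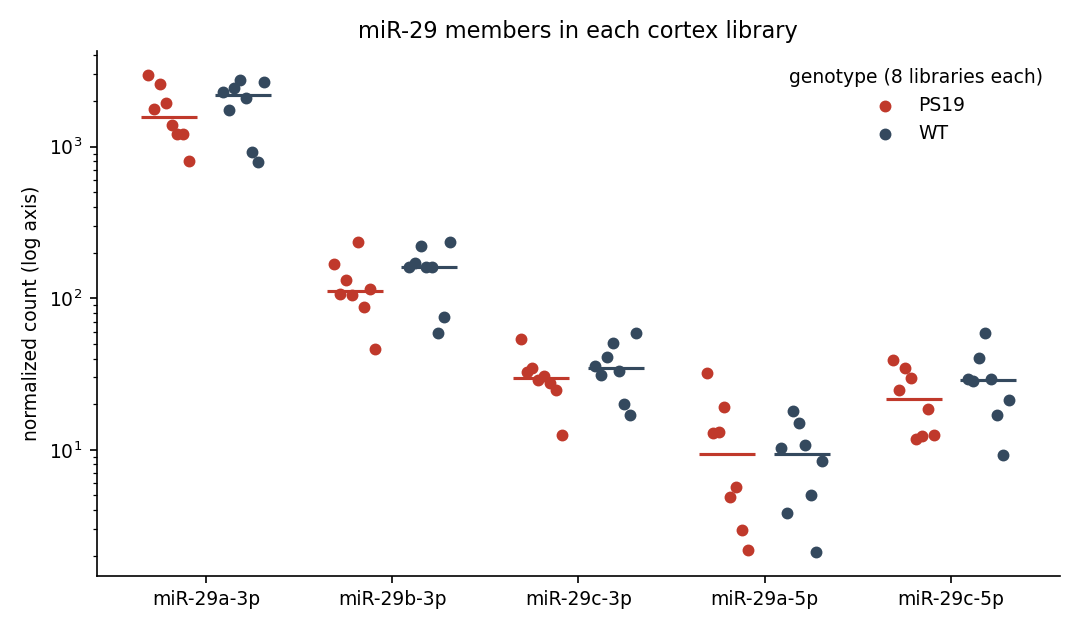
Normalized count of the 5 miR-29 members (log axis) in each of the 8 PS19 and 8 WT cortex libraries, 1 point per library in replicate order, with a line at the median of the group. For every member the points of the genotypes overlap, and miR-29a-3p lies above all other members in every library.

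Within each genotype, the members varied several-fold between mice. In PS19 the normalized count of miR-29a-3p ran from 803.1 in replicate 8 through a median of 1579 to 2991 in replicate 1. In WT it ran from 787.2 in replicate 7 through a median of 2182 to 2735 in replicate 4. The lowest libraries of both genotypes lay close together, and so did the highest.

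miR-29b-3p spanned 46.1 to 234.0 (median 111.0) in PS19 and 59.0 to 235.1 (median 161.7) in WT. Its highest PS19 value came from replicate 5 and its next highest, 168.8, from replicate 1. miR-29c-3p spanned 12.4 to 53.9 (median 29.6) in PS19 and 17.0 to 58.8 (median 34.4) in WT. PS19 replicate 8 and WT replicates 6 and 7 were the low libraries for all 3 3p members, and the ranges of the genotypes overlapped over most of their length.

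Of the 5p members, miR-29a-5p came close to the limit of detection in some mice. miR-29a-5p ranged from 2.19 to 32.0 (median 9.34) in PS19 and from 2.12 to 18.0 (median 9.32) in WT, which corresponds to 3 to 22 reads per library. A count of 3 reads has an exact Poisson 95% interval of 0.619 to 8.77 reads, which covers counting error only. miR-29c-5p ranged from 11.8 to 39.3 (median 21.7) in PS19 and from 9.19 to 59.3 (median 28.97) in WT, or 12 to 59 reads. Both arms had their highest values in libraries that were also high in miR-29a-3p, PS19 replicate 1 and WT replicates 3 and 4.

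No miR-29 member passed the test for a difference in PS19 mice compared to WT. Over the 6024 features tested with limma, 0.00% had an adjusted p-value under 0.05, and 2.14% were lower and 1.86% higher in PS19 at an unadjusted p-value under 0.05. The family had 0 of 5 at either threshold. The edgeR test also gave 0 features at an adjusted p-value under 0.05 and 265 at an unadjusted one, and DESeq2 gave 15 and 283, with no miR-29 member among them. miR-29a-3p had a log2 difference, PS19 minus WT, of -0.16 (SE 0.30, 95% interval -0.79 to 0.47, adjusted p = 0.9998). The difference was -0.32 for miR-29b-3p (SE 0.32, 95% interval -0.99 to 0.34), and -0.21 for miR-29c-3p (SE 0.29, 95% interval -0.81 to 0.38). The opposite arms gave -0.31 for miR-29c-5p (SE 0.34, 95% interval -1.01 to 0.39) and 0.12 for miR-29a-5p (SE 0.46, 95% interval -0.85 to 1.08), each with an adjusted p of 0.9998. All 5 intervals included 0, and those of the 3p arms and of miR-29c-5p reached to -0.79 or below, so differences of that size lay within the error.

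Of the 5 members, 4 had a mean log2 value below that of WT and 1 above, with a median difference of -0.21. The median was -0.02 over all features tested and -0.13 over the 521 mature miRNA rows tested, of which 15 had an unadjusted p-value under 0.05. The remaining arms of the family gave 0.04 for miR-29b-1-5p (95% interval -0.47 to 0.55) and -0.42 for miR-29b-2-5p (95% interval -1.003 to 0.16), and the 4 hairpin rows ranged from -0.19 for mir-29a to -0.04 for mir-29b-2. In bulk cortex, fewer cells that make miR-29 and less miR-29 per cell cannot be told apart. When the library letter entered as a further term, the differences of the 3p members became -0.45, -0.55 and -0.45 for miR-29a-3p, miR-29b-3p and miR-29c-3p and that of miR-29c-5p became -0.95 (SE 0.52, limma unadjusted p = 0.080), with none at an unadjusted p-value under 0.05. miR-29a-5p stood at 0.11 with this term. The letters F and A held WT libraries only, so the genotype difference in this fit rests on 8 PS19 and 2 WT libraries, those with the letter G. The median over all mature miRNA rows moved from -0.13 to -0.33 in the same fit.

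**Figure D2:**
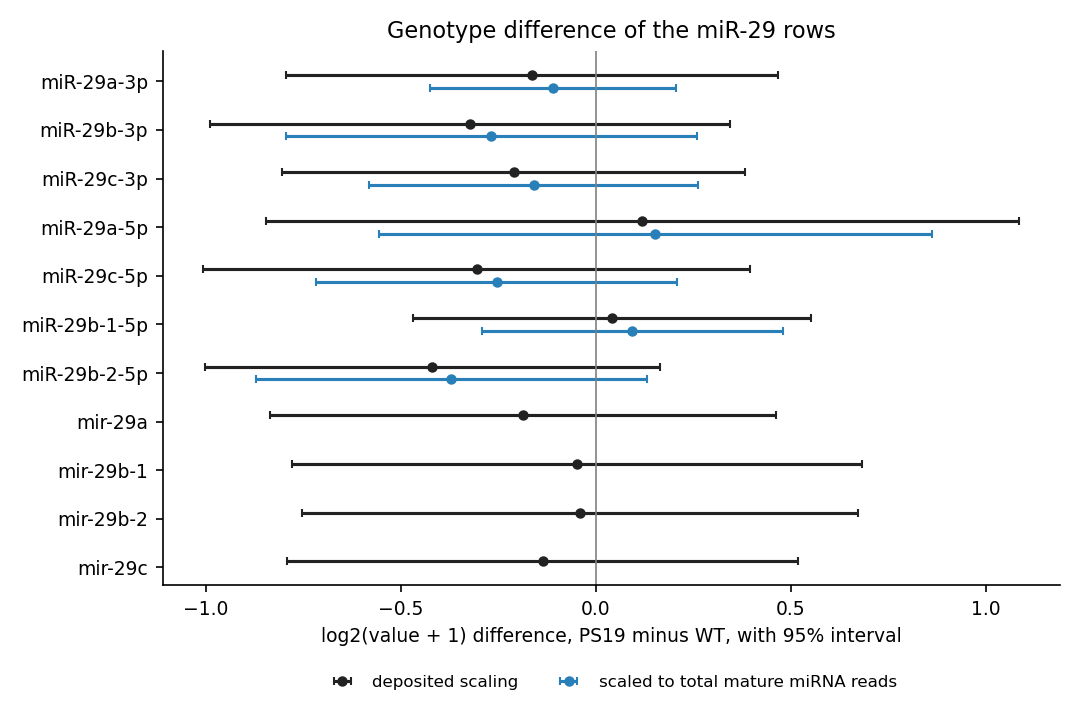
Difference of each miR-29 row between genotypes on the log2(value + 1) scale, PS19 minus WT (n = 8 each), with limma 95% intervals, for the deposited scaling and, for mature rows, after scaling each library to its total of mature miRNA reads. Every interval includes 0, and those of the mature-scaled values are narrower, for miR-29a-3p -0.43 to 0.21.

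Much of the spread between mice was shared with the mature miRNAs as a whole. After subtracting each genotype's mean, the log2 level of miR-29a-3p followed that of total mature miRNA signal over the 16 libraries with r = 0.92 (Spearman's rho 0.89). The same comparison gave r = 0.79 (rho 0.78) for miR-29c-3p, 0.88 (rho 0.83) for miR-29a-5p, 0.83 (rho 0.85) for miR-29c-5p and 0.66 (rho 0.55) for miR-29b-3p. These are descriptions across libraries that also share depth and size factor. The members are themselves a small part of that total.

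Expressed as reads per M mature miRNA reads (RPM), the sum of the 3 3p members was 430.6 ± 55.5 (SD, n = 8, range 365.2 to 501.0) in PS19 mice and 473.8 ± 110.6 (SD, n = 8, range 369.8 to 657.9) in WT. By member, miR-29a-3p stood at 392.8 ± 44.3 RPM in PS19 mice against 431.3 ± 101.6 in WT mice, miR-29b-3p at 30.6 ± 17.4 against 34.4 ± 9.17, and miR-29c-3p at 7.16 ± 1.67 against 8.11 ± 2.45 (SD, n = 8 each). The highest WT values of miR-29a-3p and miR-29c-3p came from replicates 8 and 4, at 592.6 and 561.0 RPM for miR-29a-3p, and no PS19 library exceeded 449.0. As normalized counts the same sum spread 3.73-fold in PS19 and 3.37-fold in WT, against 1.37-fold and 1.78-fold in RPM. On this scale the genotype difference of miR-29a-3p was -0.11 (SE 0.15, 95% interval -0.43 to 0.21) on the log2 scale, with an interval narrower than before. It was -0.27 for miR-29b-3p (SE 0.25), -0.16 for miR-29c-3p (SE 0.20), -0.26 for miR-29c-5p (SE 0.22) and 0.15 for miR-29a-5p (SE 0.34). Their limma adjusted p-values over the 518 mature rows tested were 0.811 or higher.

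The composition of the family was compared next, since a ratio of 2 rows in 1 library depends little on how that library was scaled. Medians, percents and ranges of ratios are of the plain values. Differences, SDs and p-values of ratios are on log2((a + 1)/(b + 1)), in which the added 1 leaves a small part of the scaling in rows of few reads. miR-29a-3p made up 84.0 to 94.0% of the reads of the 3 3p members, miR-29b-3p 4.75 to 14.1% and miR-29c-3p 1.25 to 2.08%. The ratio of miR-29a-3p to miR-29c-3p, which differ at the single base C10U, had a median of 55.0 in PS19 and 55.0 in WT, with a difference of 0.05 on the log2 scale (two-sided exact permutation test over 12870 assignments, p = 0.701). Its SD between mice was 0.28 in PS19 and 0.21 in WT on the log2 scale.

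The SD of the ratio of miR-29b-3p to miR-29c-3p in PS19 depended on replicate 5, at 0.42 with this library and 0.19 without it, against 0.28 and 0.27 for miR-29a-3p to miR-29c-3p. The median ratio of miR-29b-3p to miR-29a-3p was 5.90% in PS19 and 8.26% in WT, a mean difference of -0.16 on the log2 scale (exact permutation test, p = 0.518). Against miR-29c-3p the median ratio of miR-29b-3p was 3.69 in PS19 and 4.48 in WT, a difference of -0.11 (exact permutation test, p = 0.572). Between the arms of 1 hairpin, miR-29a-5p stood at a median of 0.486% of miR-29a-3p in PS19 and 0.481% in WT, with a range of 0.218 to 1.07% (difference 0.28, exact permutation test, p = 0.339). miR-29c-5p in contrast reached 75.2% of miR-29c-3p in PS19 and 87.1% in WT as medians, with a range of 36.5 to 118.0% (difference -0.10, exact permutation test, p = 0.710). By the arm rows, the miR-29a hairpin was thus read almost entirely from its 3p arm and the miR-29c hairpin from both arms at similar levels. How reads were divided between arm and hairpin rows is not stated, so this balance holds for the arm rows only. All 5 ratios had an adjusted p of 0.710. With no 1 added, an alternative chosen after seeing the data, the 5 differences were 0.05, -0.16, -0.11, 0.28 and -0.10 in the same order, and the exact permutation p-values ran from 0.439 to 0.708, with an adjusted p of 0.708 for each. In the 8 PS19 and 2 WT libraries with the letter G alone, the difference was 0.56 for miR-29a-5p to miR-29a-3p (exact permutation test, p = 0.378) and -0.50 for miR-29c-5p to miR-29c-3p (exact permutation test, p = 0.222), each with an adjusted p of 0.933.

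A single library, PS19 replicate 5, stood apart in miR-29b-3p. There miR-29b-3p took 238 of 1684 3p reads, or 14.1% (Wilson 95% interval 12.6 to 15.9%), while in the other 15 libraries its share lay between 4.75 and 8.75%. At 69.4 RPM, miR-29b-3p was at 2.80-fold of the median of the other 15 libraries, 24.8 RPM, the 17th largest fold among 382 mature rows compared. miR-29a-3p was at 1.07-fold and miR-29c-3p at 1.19-fold of their medians in the same library, and miR-29c-5p was at 0.615-fold.

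Without PS19 replicate 5 the log2 ratio of miR-29b-3p to miR-29a-3p differed by -0.34 (exact permutation test, p = 0.0486, adjusted p = 0.243). Adjustment was over the 5 ratios. The unadjusted value was the smallest for this ratio among the 16 tests with 1 library left out. With all libraries the difference was -0.16 (exact permutation test, p = 0.518). PS19 replicate 5 was singled out by its high miR-29b-3p, which enters the tested ratio, so the unadjusted value without it cannot decide whether the genotypes differ. The sign was the same with and without this library, and the adjusted value did not pass the threshold in either case. The level of miR-29b-3p differed by -0.47 without it (95% interval -1.13 to 0.19, limma adjusted p = 0.998).

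**Figure D3:**
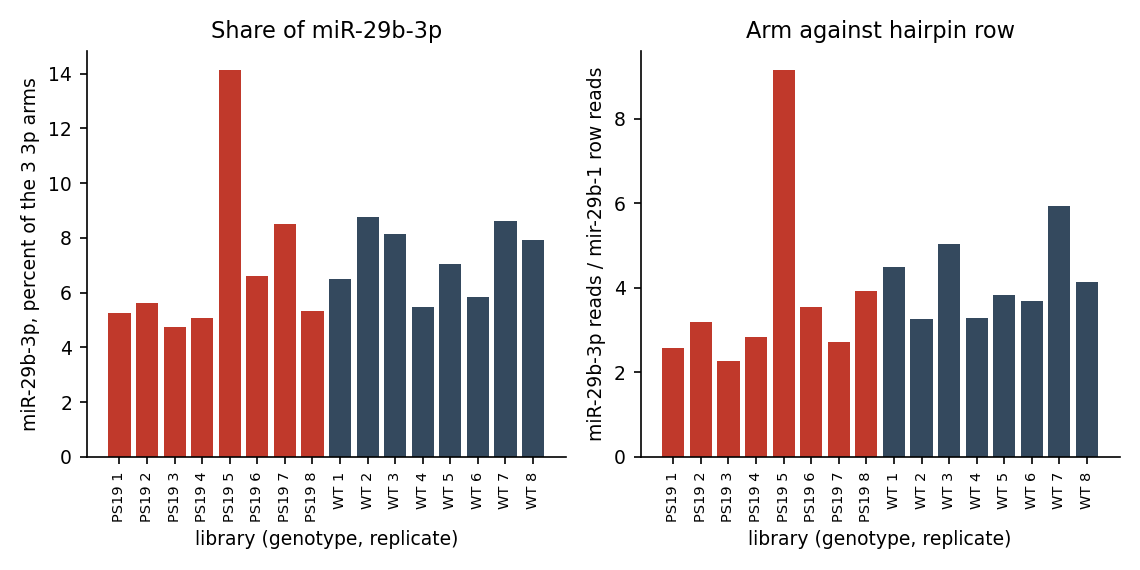
miR-29b-3p in each of the 16 libraries, as a percent of the reads of the 3 miR-29 3p arms (left) and as reads per read of the mir-29b-1 hairpin row (right), with PS19 in red and WT in dark blue. PS19 replicate 5 is the highest in both panels, at 14.1% and 9.15 reads per hairpin read, and the other libraries lie at 8.75% or below and at 5.94 or below.

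The hairpin rows offered a second reading of the same loci. The mir-29a row held 69.1 to 83.6% as many reads as miR-29a-3p and followed it over the 16 libraries with r = 0.994 (rho 0.997) on the log2 scale, genotype means subtracted. The mir-29c row exceeded the sum of its arms in 16 of 16 libraries, by 1.01 to 1.94 times. The mir-29b-1 and mir-29b-2 rows differed by at most 6 reads in any library and were equal in 4 of 16. These 2 hairpins share their 3p arm, so their rows may hold many of the same reads and are not independent measures of the clusters. The mir-29b-1 row held fewer reads than its own 5p arm in 8 of 16 libraries and mir-29b-2 in 3 of 16, so a hairpin row was not the sum of its arms. How reads were divided between hairpin and arm rows is not stated in the sources used here.

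In PS19 replicate 5 the high level of miR-29b-3p was not seen in the hairpin rows. Both mir-29b rows held 26 reads in that library, within the 15 to 72 reads of all libraries, against 238 for the arm, a ratio of 9.15. In the other 15 libraries the ratio of arm to hairpin ran from 2.28 to 5.94 for mir-29b-1 and from 2.33 to 7.13 for mir-29b-2. The 5p arms miR-29b-1-5p and miR-29b-2-5p had normalized counts of 32.4 and 19.7 there, within the range of the other PS19 mice.

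The mature miRNAs whose levels followed the 3p sum most closely were named from 148 rows with a mean of at least 500. The measure was Pearson's r on the log2 scale over the 16 libraries after subtracting each genotype's mean. The 5 highest were miR-9-5p (r = 0.984), a miRNA abundant in neural cells, miR-218-5p (r = 0.978), which is known from motor and other neurons, miR-340-5p (r = 0.974), miR-434-5p (r = 0.972) from the imprinted Dlk1-Dio3 region, and miR-30e-5p (r = 0.966). The median over the 148 rows was 0.81, and 40 rows had r above 0.9, so a high r was common.

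After scaling each library to its mature total, the median fell to 0.077 and the same 5 rows kept r = 0.895, 0.828, 0.829, 0.791 and 0.841. They then ranked 1st, 5th, 4th, 8th and 3rd of 148. Of the other neuronal markers used further on that are among the 148 rows, miR-124-3p had a scaled r of 0.563 and miR-128-3p of -0.186. The endothelial marker miR-126a-3p stood at 0.740. Base composition moved with this likeness. Over the 123 rows with a sequence in the table, the percent of G and C was correlated with the scaled r at -0.51, and its median was 42.5% in the 36 rows with an unscaled r above 0.9 and 50.0% in the other 87. miR-29a-3p, miR-29b-3p and miR-29c-3p have 40.9, 34.8 and 36.4% G and C. The part of base composition in the likeness was not tested.

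**Figure D4:**
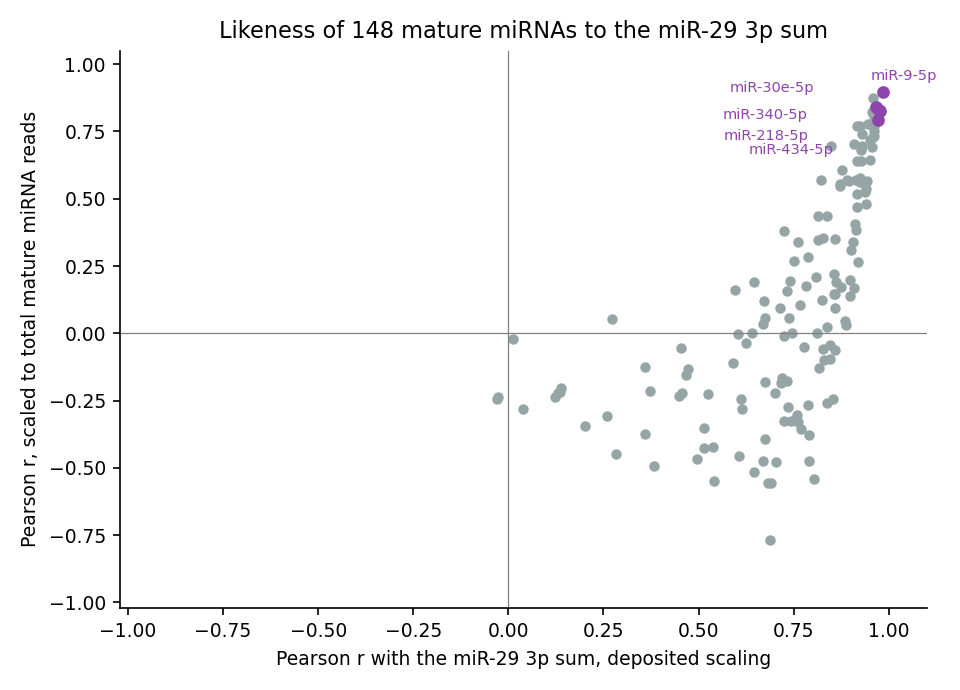
Pearson r of 148 mature miRNAs with the sum of the 3 miR-29 3p members over 16 libraries, genotype means subtracted, with deposited scaling on the x axis and after scaling to total mature miRNA reads on the y axis. The 5 rows named by the highest unscaled r (purple) stay at 0.791 or above on the y axis, where the median of all rows is 0.077.

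No miRNA passed the test in 3 lists of related miRNAs. Of 10 other miRNAs reported to repress Bace1, among them miR-107-3p, miR-16-5p and miR-328-3p, 10 were tested, 0 had an unadjusted limma p-value under 0.05, against 2.14% lower and 1.86% higher of all features tested. The median difference was -0.13, the same as over all mature miRNA rows tested, with 9 below and 1 above WT. The log2 differences ran from -0.60 for miR-298-5p to 0.16 for miR-339-5p, with -0.20 for miR-107-3p, -0.12 for miR-16-5p and -0.03 for miR-328-3p. Of 9 miRNAs of mature neurons, 0 passed in either direction, 5 stood below and 4 above WT, and the median was -0.01. The differences ran from -0.32 for miR-137-3p to 0.22 for let-7c-5p. Of 4 miRNAs reported in astrocytes, 0 passed, with a median of -0.08. The lowest of these was miR-143-3p at -0.44 (SE 0.27), a miRNA that is also abundant in vessel smooth muscle.

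The tissue label was checked with markers of the cells that cortex can hold. The 4 neuronal markers summed to a normalized count of 294008 to 1024823 in PS19 and 341011 to 951040 in WT, and the 4 astrocyte markers to 47819 to 220585 and 59597 to 168976, a sum that includes miR-143-3p, which vessel smooth muscle also makes. Oligodendrocyte markers (3 rows) summed to 18523 to 52341 in PS19 and 13367 to 46513 in WT, and those of endothelium (2 rows) to 5017 to 28305 and 5112 to 27200. The 5 markers of microglia and blood myeloid cells summed to 1674 to 5421 and 1540 to 3977, and 3 of them had a mean under 5. Muscle markers (3 rows) summed to 2253 to 14631 in PS19 and 2867 to 10689 in WT, and choroid plexus markers (2 rows) to 785.5 to 6772 and 548.1 to 4317, both reaching above the myeloid sums. Single rows made up much of several sums, which are therefore not levels of cell types. By mean over all libraries, the astrocyte list held miR-26a-5p at 81950 and miR-143-3p at 23211. The oligodendrocyte list held miR-219a-2-3p at 30515 and miR-338-3p at 66.2. In the muscle list miR-1a-3p had 6575, miR-206-3p 480.0 and miR-133a-3p 15.4. The 3 red blood cell rows summed to 730.6 to 1518 in PS19 and 651.6 to 1411 in WT, and the liver row stood at 138.2 to 653.5 and 132.3 to 386.6. Nearly all of the red blood cell sum was miR-486a-5p, with a mean of 975.6 over all libraries. The other rows of that list were low, at 15.6 for miR-451a and 0.34 for miR-144-3p. In every list the sums of the genotypes overlapped and 0 markers tested had an unadjusted limma p-value under 0.05. Over all features tested the share was 2.14% lower and 1.86% higher in PS19. The part of cell composition in the spread of miR-29 was not tested.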

How the data were processed

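Small RNA libraries from mouse prefrontal cortex (8 PS19, 8 WT) were analysed, grouped by the genotype in the labels. Per the labels and the methods of the study, total small RNA was isolated with a Norgen kit, libraries were made with the NEBNext small RNA set, sequenced single-end, and aligned to mm10 with STAR 2.5.3a inside COMPSRA. The deposited values are a normalized signal, read counts that the authors divided by 1 size factor per library for DESeq2 1.42.1. Per the file headers the authors also gave their mean signal, log2 fold changes, Wald score and p-values in the same table, none of which was used. Whole reads were recovered by division by the smallest value above 0. In 2 libraries, WT replicates 4 and 6, 1 read was worth within 1% of 1, so recovery there rests on weaker evidence. No per-library column was left out (0 columns).

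Values were tested as log2(value + 1) with limma 3.58.1 (lmFit, eBayes with trend, R 4.3.3) over 6024 features with a mean of at least 5, with Benjamini-Hochberg adjustment. Differences on this scale understate changes of low rows. Ratios of 2 rows were tested by exact permutation, two-sided (Python 3.11.15, scipy 1.17.1) and adjusted over 5 ratios. The scripts were tested on simulated data. Alternatives were DESeq2 1.42.0 and edgeR 4.0.16 on recovered reads, other scalings, filters and pseudocounts, a replicate block, the library letter as a term, and each library left out in turn. Leaving out the 2 libraries with a step near 1, and ratios with no 1 added, were chosen after seeing the data. Over 56 within-group library pairs, chi-square per degree of freedom was 67.7 to 875.7, so no pair looked like 1 library deposited in duplicate, and nothing else is read from it. Each library is counted as 1 mouse.

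The family members and lists were chosen with earlier results of these data known. By rule, the text names the 5 members, the 6 other family rows, the 5 rows most like the 3p sum, and examples from the lists. The list examples were chosen after their values were seen. Intervals of reads cover counting error only, since the reads carry no molecular identifiers.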

Additional observations from a re-analysis of the deposited data

Results flagged for a closer look

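A set of 4 values stood far from the others of their group by Dixon's criterion, in which the gap to the nearest library is divided by the range of the group and compared with the 95% critical value for 8 libraries. Over the 42 group values examined, chance gives about 2.1 such values. Of these, 3 came from PS19 replicate 5 and describe the same library. The share of miR-29b-3p among the 3 3p members was 14.1% there, with the next PS19 library at 8.52%. The share of miR-29a-3p was 84.0%, with the next at 89.6%. The log2 ratio of miR-29b-3p to miR-29c-3p, with 1 added to each value, was 2.90, with the next at 2.16. The other value was the normalized count of miR-29b-1-5p in PS19 replicate 1, 69.9 against 41.6 in the next library. That library was also the highest PS19 library for miR-29a-3p, miR-29c-3p, miR-29a-5p and miR-29c-5p.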

How the results depend on the processing

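The count of miR-29 members at an adjusted or unadjusted p-value under 0.05 was 0 under all 11 alternatives and with each of the 16 libraries left out. The log2 differences of miR-29a-3p (-0.33 to -0.02), miR-29b-3p (-0.50 to -0.14), miR-29c-3p (-0.35 to -0.05) and miR-29c-5p (-0.51 to -0.14) kept their sign with any 1 library left out. That of miR-29a-5p ran from -0.14 to 0.34 and turned negative without PS19 replicate 1 (-0.14), PS19 replicate 4 (-0.04), WT replicate 2 (-0.0041) or WT replicate 7 (-0.09). Under the 10 other alternatives that tested miR-29a-5p, its difference ran from 0.11 to 0.30. The log2 ratio of miR-29a-3p to miR-29c-3p ran from -0.015 to 0.10, turning negative without PS19 replicate 3, and that of miR-29c-5p to miR-29c-3p from -0.25 to 0.026, turning positive without PS19 replicate 5. The other ratios kept their sign, at -0.34 to -0.09 for miR-29b-3p to miR-29a-3p, -0.25 to -0.06 for miR-29b-3p to miR-29c-3p and 0.15 to 0.40 for miR-29a-5p to miR-29a-3p. Among the libraries with the letter G alone, the ratios of the arms moved to 0.56 for miR-29a-5p to miR-29a-3p and -0.50 for miR-29c-5p to miR-29c-3p, from 0.28 and -0.10, and the ratios among the 3p arms were 0.0079 for miR-29a-3p to miR-29c-3p, -0.10 for miR-29b-3p to miR-29a-3p and -0.09 for miR-29b-3p to miR-29c-3p. A pseudocount of 5 gave 0.02 for miR-29a-3p to miR-29c-3p, and no ratio changed sign under it, without a pseudocount or in the replicate block. The causes were not tested. The smallest adjusted p of a member over all alternatives was 0.811. miR-29a-5p was not tested at a mean of at least 20, and DESeq2 gave it no adjusted p.

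The replicate numbers were not shown to pair the mice. Deviations of same-numbered libraries correlated at 0.045 to 0.456, over 0.1 in 6 of 8 pairs, and 2 of 8 libraries correlated best with their own number. With the number as a replicate block, the differences were -0.16, -0.32, -0.21, 0.12 and -0.31, the count of members at an adjusted p-value under 0.05 was 0, the unadjusted p-values of miR-29a-3p, miR-29b-3p, miR-29c-3p, miR-29a-5p and miR-29c-5p were 0.482, 0.281, 0.465, 0.733 and 0.239, and 419 features instead of 241 had an unadjusted p-value under 0.05. With the lowest member at 3 to 22 reads per library, counting error is among the limits on miR-29a-5p.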
